A study of Vitis vinifera with 12 samples.

Results

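Transcript levels of 8 MADS-box genes were followed in berries of Flame Seedless, a seedless red table grape, at 40, 50, 60 and 80 days after full bloom. The genes are 8 of the 22580 identifiers in the table, and all 8 were present. They were taken from a fixed list of identifiers that also gives each one's clade: AGL11 (VIT_18s0041g01880), a pair of AGAMOUS-clade genes (VIT_12s0142g00360 and VIT_10s0003g02070), 3 SEPALLATA genes (VIT_14s0083g01050, VIT_17s0000g05000 and VIT_01s0010g03900) and a pair of FRUITFULL genes (VIT_17s0000g04990 and VIT_14s0083g01030). Each age had 3 libraries, lettered a, b and c, and all 12 come from untreated fruit of this single cultivar. The labels give the tissue as fruit and do not say whether seed traces were kept, and they state that RNA of replicates was pooled after extraction, so p-values measure only the spread between libraries, which may be technical. The table names no gene, so the tissue could not be checked against marker genes.

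MADS-box genes encode transcription factors that bind DNA as pairs and larger complexes. In Arabidopsis, AGAMOUS specifies stamens and carpels, the AGL11 orthologue SEEDSTICK acts in ovule identity and seed coat development, SEPALLATA proteins join the other classes into complexes, and FRUITFULL patterns the fruit wall. In tomato, relatives of these genes take part in fruit ripening. In grape, AGL11 is the gene of the seed development locus, and changes in it are associated with the kind of seedlessness in which the seed aborts after fertilization. The RefSeq gene table for assembly ASM3070453v1 lists AGL11 and SDI as synonyms of MADS5, but none of the file's identifiers matched that table (0 of 22580), so no other MADS-box gene could be picked out and counted beside the 8. Levels are given in FPKM, a fragment count divided by the length of the gene model and by the size of the library, so levels of different genes can be set side by side.

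The 8 genes differed widely in level. VIT_01s0010g03900 (SEPALLATA) was the highest at every age, followed by VIT_12s0142g00360 and VIT_10s0003g02070 (AGAMOUS clade) and VIT_14s0083g01050 (SEPALLATA), and among these 4 no neighbours in the order overlapped at any age. The other 4 were lower. At 40 days VIT_14s0083g01030 (FRUITFULL), AGL11 and VIT_17s0000g05000 (SEPALLATA) came next, with overlap between neighbours. At 50 and 60 days AGL11 stood next below these 4, above VIT_14s0083g01030 without overlap. At 80 days its highest library overlapped the range of VIT_14s0083g01050. The pair on the 17s0000 block stayed under 1 FPKM in all 12 libraries.

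**Figure D1:**
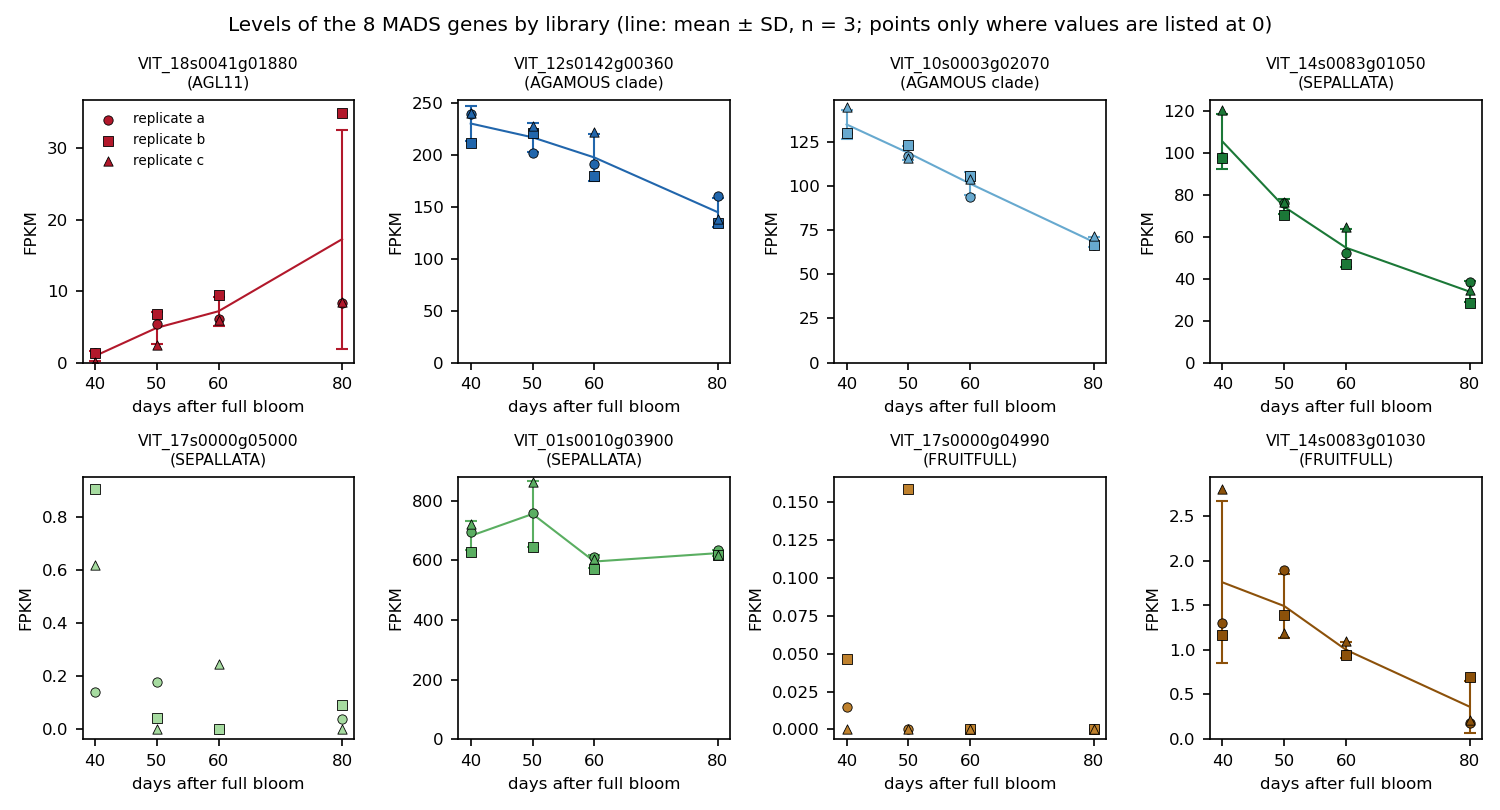
Level of each of the 8 MADS genes in FPKM (y axis, own scale per panel) against days after full bloom (x axis). Points are libraries, and lines join means with SD (n = 3), left out for the 2 genes with values listed at 0. AGL11 is the panel that climbs, with 80-day replicate b at 35.0 FPKM, while 4 panels decline and VIT_01s0010g03900 stays between 571 and 864 FPKM.

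Differences between ages were tested on log2(FPKM + 1) with limma across the 14579 gene models that had at least 1 FPKM in at least 3 libraries. Of the 8 genes 6 passed this filter, and the pair on the 17s0000 block did not. A call needed a difference of at least 1 and an adjusted p (Benjamini-Hochberg) under 0.05, and genes that passed the adjusted p alone are named as such. On this scale the changes of low genes are understated. At 80 against 40 days 2 of the 6 were called, AGL11 as higher and VIT_14s0083g01050 as lower, where 21% of all tested gene models were called. By adjusted p alone 1 member was higher and 4 were lower, beside 30% and 30.7% of all tested gene models. The 80-day and 40-day libraries did not overlap in 5 of the 6 members, nor in 65.5% of all tested gene models. The median difference of the 6 members was -0.82, against 0.00 over all tested gene models. Taking the 4 ages together, limma's F test with a range of at least 1 called AGL11 and VIT_14s0083g01050 (24.3% of all tested gene models), and 5 of the 6 passed its adjusted p alone (65.4%).

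AGL11, whose Arabidopsis orthologue acts in ovule and seed coat, was the only one of the 6 tested members that rose. It was measured at 1.27, 1.36 and 0.118 FPKM at 40 days in replicates a, b and c, at 5.39, 6.77 and 2.43 FPKM at 50 days, at 6.04, 9.53 and 5.99 FPKM at 60 days, and at 8.39, 35.0 and 8.46 FPKM at 80 days. Every library from 50 days on was above every 40-day library, and replicate b was the highest at each age. The 80-day libraries a and c lay close together, inside the range of the 60-day libraries. Within each library, AGL11 stood between the 26.2 and 40.5 percentile of all identifiers at 40 days, and between the 62.0 and 82.9 percentile at 80 days.

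The mean of AGL11 was 17.3 ± 15.3 FPKM at 80 days and 0.918 ± 0.694 FPKM at 40 days (SD, n = 3 each), an 18.8-fold higher mean. The difference was 3.02 ± 0.51 on the log2(FPKM + 1) scale (SE; 95% interval 1.89 to 4.15; limma adjusted p = 0.000427), and 0.501% of all tested gene models had a higher one. The size rested in part on 80-day replicate b. Without it the 80-day mean was 8.42 FPKM, 9.18-fold above that at 40 days, and the log2 difference was 2.37 (limma adjusted p = 0.00061). In RNA from fruit as labelled, more cells that express a gene and more RNA per cell cannot be told apart.

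Of the 3 intervals, AGL11 passed the test in the first, and the intervals were not tested against each other. Its mean was 4.86 ± 2.22 FPKM at 50 days, 5.30-fold above that at 40 days, with a log2 difference of 1.61 ± 0.51 (limma adjusted p = 0.0344). It was the only member called in that interval, in which 8.03% of all tested gene models were called. The call was not firm: the adjusted p was 0.0524 without 40-day replicate b, 0.129 without 40-day replicate c, 0.0887 without 50-day replicate a and 0.111 without 50-day replicate b. At 60 against 50 days the difference of 0.53 had a 95% interval of -0.60 to 1.67, and at 80 against 60 days the difference of 0.87 had one of -0.26 to 2.01. Neither passed the adjusted p (0.511 and 0.253), and the libraries overlapped in both intervals. Without 80-day replicate b the 80-day mean was 1.17-fold that at 60 days, against 2.40-fold with it.

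The AGAMOUS-clade genes, C-class regulators of carpel identity in other plants, were both abundant and declined slowly. VIT_12s0142g00360 was measured at 239, 211 and 240.3 FPKM at 40 days, at 201, 221 and 228 FPKM at 50 days, at 191, 179 and 222 FPKM at 60 days, and at 161, 135 and 139 FPKM at 80 days. The 80-day libraries lay below every library of the earlier ages, which overlapped from each age to the next. Its mean was 145 ± 13.97 FPKM at 80 days and 230.0 ± 16.6 FPKM at 40 days (SD, n = 3 each), a log2 difference of -0.67 ± 0.10 (limma adjusted p = 0.000194). This passed the adjusted p alone, as did the interval of 80 against 60 days, with a difference of -0.44 ± 0.10 (limma adjusted p = 0.0133). Without 60-day replicate c that interval gave an adjusted p of 0.0569.

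VIT_10s0003g02070, the other AGAMOUS-clade gene, was measured at 130.3, 129.9 and 145 FPKM at 40 days, at 117, 123 and 116 FPKM at 50 days, at 94.0, 106 and 104 FPKM at 60 days, and at 66.8, 66.5 and 71.9 FPKM at 80 days. The 4 ages followed one another downwards with no overlap between any neighbouring ages. Its mean was 68.4 ± 3.03 FPKM at 80 days and 135 ± 8.44 FPKM at 40 days (SD, n = 3 each), a log2 difference of -0.97 ± 0.07 (limma adjusted p = 2.05e-06), just short of the minimum difference. With quantile normalization (-1.04) or without 80-day replicate c (-1.01) the gene was called. The last interval passed the adjusted p alone, with -0.56 ± 0.07 at 80 against 60 days (limma adjusted p = 0.00141). The earlier differences of -0.18 at 50 against 40 days and -0.23 at 60 against 50 days gave limma adjusted p-values of 0.0766 and 0.0542.

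The SEPALLATA genes encode partners that bring the other MADS classes into complexes. VIT_14s0083g01050 had the most negative difference of the 6 tested members at 80 against 40 days on the log2(FPKM + 1) scale, although with a pseudocount of 0.1 that of VIT_14s0083g01030 was further down (-2.07, against -1.64). It was measured at 98.0, 97.8 and 121 FPKM at 40 days, at 75.9, 70.2 and 76.7 FPKM at 50 days, at 52.3, 47.2 and 64.9 FPKM at 60 days, and at 38.5, 28.5 and 34.5 FPKM at 80 days. Neighbouring ages did not overlap at any step.

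Its mean was 33.8 ± 4.99 FPKM at 80 days and 105 ± 13.1 FPKM at 40 days (SD, n = 3 each), 3.12-fold higher at 40 days. The log2 difference was -1.61 ± 0.14 (95% interval -1.92 to -1.31; limma adjusted p = 4.18e-06). By interval the differences were -0.49 ± 0.14 at 50 against 40 days, -0.44 ± 0.14 at 60 against 50 days and -0.68 ± 0.14 at 80 against 60 days, with limma adjusted p-values of 0.0186, 0.0499 and 0.00816. None of the 3 reached the minimum difference. The first missed the adjusted p in 2 of 20 alternatives, with values of 0.0776 when 40-day replicate c was dropped and 0.0599 when 50-day replicate b was, and the second missed it in 13 of 20. The difference over the whole period kept its call in all 20 alternatives.

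VIT_01s0010g03900 was the most abundant of the 8 and had the smallest difference of the 6 tested members at 80 against 40 days. It was measured at 697, 628 and 722 FPKM at 40 days, at 759.6, 644 and 864 FPKM at 50 days, at 613, 571 and 605 FPKM at 60 days, and at 635, 619 and 619 FPKM at 80 days. Within each library it stood between the 99.1 and 99.5 percentile of all identifiers. Of the 80-day libraries, replicate a lay inside the range of the 40-day libraries and replicates b and c just below it. The log2 difference was -0.13 with a 95% interval of -0.36 to 0.10 at 80 against 40 days (limma adjusted p = 0.318). At 60 against 50 days the libraries did not overlap, with a difference of -0.33 ± 0.10 (limma adjusted p = 0.0536). This missed the adjusted p in 16 of 20 alternatives, with values from 0.0148 to 0.173. The libraries of 80 and 60 days did not overlap either, with a difference of 0.07 (limma adjusted p = 0.685). Over the 4 ages limma's F test gave an adjusted p of 0.059.

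VIT_17s0000g05000, the third SEPALLATA gene, was barely detected. Its highest library, 40-day replicate b, had 0.908 FPKM, and 40-day replicates a and c had 0.143 and 0.621 FPKM. From 50 days on no library exceeded 0.246 FPKM, and 4 of the 12 libraries were listed at 0. The gene was not tested.

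The FRUITFULL genes, fruit wall regulators in Arabidopsis, were both low. VIT_14s0083g01030 was measured at 1.31, 1.16 and 2.81 FPKM at 40 days, at 1.89, 1.39 and 1.19 FPKM at 50 days, at 0.954, 0.948 and 1.0997 FPKM at 60 days, and at 0.177, 0.697 and 0.215 FPKM at 80 days. The 80-day libraries lay below those of every earlier age, and only 40 and 50 days overlapped. Its mean was 0.363 ± 0.290 FPKM at 80 days and 1.76 ± 0.910 FPKM at 40 days (SD, n = 3 each), 4.84-fold higher at 40 days. The log2 difference was -0.99 ± 0.23 (limma adjusted p = 0.00314), just short of the minimum difference. With a pseudocount of 0.1 it was -2.07, and the gene was then called. It was also called without 80-day replicate b (-1.16) and with 40-day replicate a or b left out (-1.09 and -1.14). Leaving out 80-day replicate b put the 80-day mean at 0.196 FPKM and the 40-day mean 8.97-fold above it. The difference shrank to -0.67 with quantile normalization and to -0.73 without 40-day replicate c, the highest library, and neither was called. Without 40-day replicate c the 40-day mean was 3.40-fold above the 80-day mean. None of the 3 intervals of VIT_14s0083g01030 passed the adjusted p.

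VIT_17s0000g04990, the other FRUITFULL gene, was listed at 0 in 9 of 12 libraries, among them all 6 of 60 and 80 days. The 3 others were 40-day replicates a and b with 0.0151 and 0.0464 FPKM and 50-day replicate b with 0.159 FPKM. Its identifier is next to that of the SEPALLATA gene VIT_17s0000g05000 in the file's order, and both were under 1 FPKM throughout. The 14s0083 block holds a like arrangement, with the FRUITFULL gene VIT_14s0083g01030 next to the SEPALLATA gene VIT_14s0083g01050 among the listed identifiers, but there the SEPALLATA gene had 105 FPKM and the FRUITFULL gene 1.76 FPKM at 40 days.

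**Figure D2:**
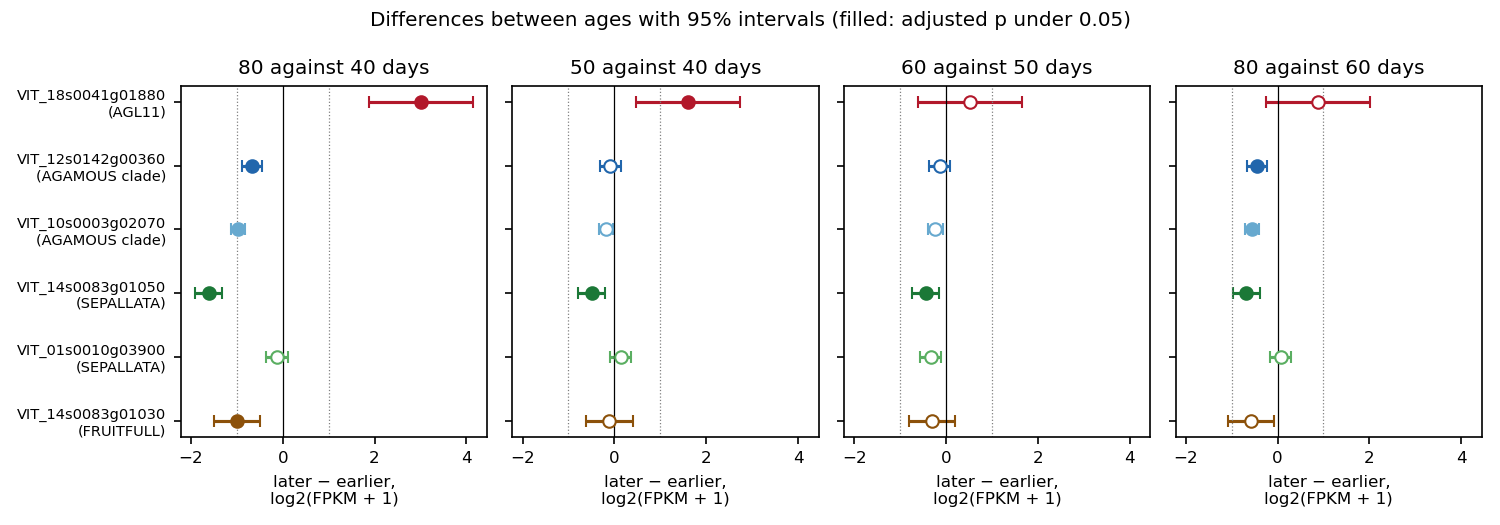
Difference between ages on the log2(FPKM + 1) scale, later minus earlier (x axis), for the 6 tested MADS genes (rows), with 95% intervals from limma; filled points passed the adjusted p and dotted lines mark the minimum difference of 1. AGL11 lies to the right at 80 against 40 days (3.02), VIT_14s0083g01050 farthest to the left (-1.61), and in the middle interval 1 of the 6 points is filled.

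Beyond the first interval no member reached both criteria. At 60 against 50 days limma called 0 of the 6 (3.68% of all tested gene models were called), 1 passed the adjusted p alone, beside 15.6% of all tested gene models, and 3 had an unadjusted p under 0.05, as did 32.3% of all. At 80 against 60 days it called 0 (3.6% of all), 3 passed the adjusted p alone, beside 20.5%, and 4 had an unadjusted p under 0.05, as did 35.4% of all. The 3 were both AGAMOUS-clade genes and VIT_14s0083g01050, all lower at 80 days. By adjusted p alone, 1 member was higher and 1 lower at 50 against 40 days, beside 13.9% and 18.2% of all tested gene models.

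**Figure D3:**
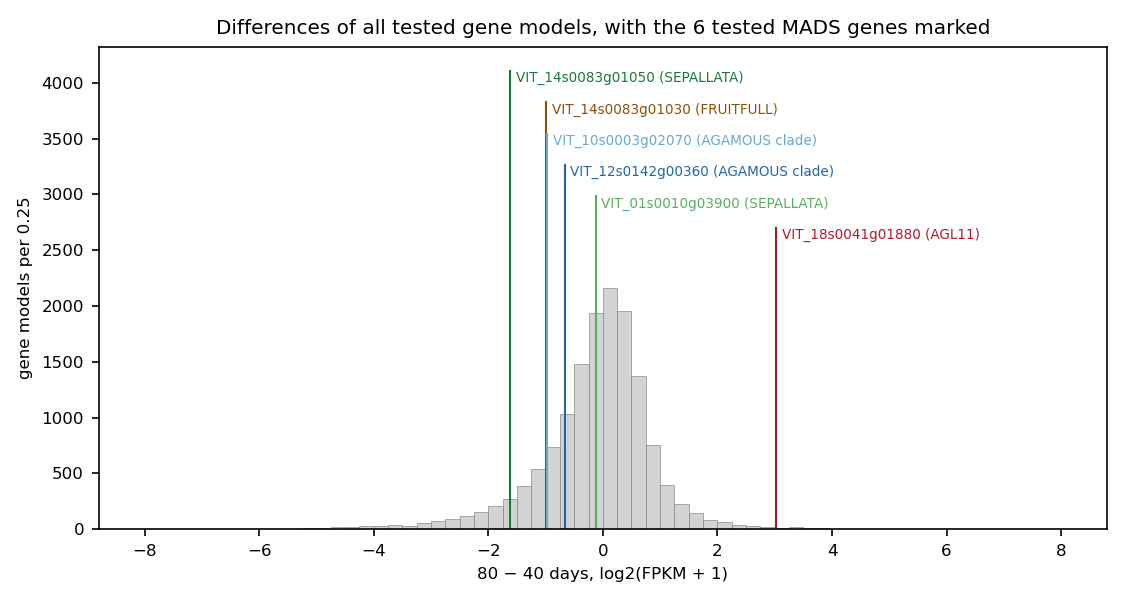
Number of tested gene models (y axis) by difference at 80 against 40 days on the log2(FPKM + 1) scale (x axis, bins of 0.25), with vertical lines at the 6 tested MADS genes. AGL11 at 3.02 lies in the far right tail, where 0.501% of gene models had a higher difference, and VIT_14s0083g01050 at -1.61 lies in the left tail, with 92.9% of gene models above it.

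Ratios between members within a library were compared between ages for 9 pairs, since for well expressed genes a ratio is little touched by library scaling. Each was tested on the log2 ratio of FPKM + 1 by exact permutation, with p-values adjusted over the 9 pairs. The permutations were all 15400 ways to split the 12 libraries into 4 ages of 3. For members near or below 1 FPKM, such as AGL11 at 40 days, the added 1 keeps the scaling from cancelling. The balance of AGL11 to the AGAMOUS-clade genes moved. The ratio of AGL11 to VIT_10s0003g02070 was 0.126, 0.526 and 0.118 in the 80-day libraries, against 0.00978, 0.0105 and 0.000815 in the 40-day libraries (exact permutation p = 6.49e-05, the smallest these permutations can give; adjusted p = 0.000584). That of AGL11 to VIT_12s0142g00360 was 0.0522, 0.260 and 0.0610 in the 80-day libraries, against 0.00534, 0.00645 and 0.000491 in the 40-day libraries (exact permutation p = 0.00039; adjusted p = 0.00117). Its 80-day mean was 0.124, and 0.0566 without 80-day replicate b. Of the summed FPKM of AGL11 and the AGAMOUS-clade pair, AGL11 made up 3.56% to 14.8% at 80 days, against 0.0306% to 0.398% at 40 days.

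The ratio within the AGAMOUS-clade pair moved less. VIT_10s0003g02070 over VIT_12s0142g00360 was 0.416, 0.494 and 0.518 in the 80-day libraries, against 0.546, 0.616 and 0.602 in the 40-day libraries. These libraries did not overlap, and the mean ratio fell from age to age (0.588, 0.550, 0.518 and 0.476). Over the 4 ages the exact permutation test, which takes no account of their order, gave p = 0.135 and an adjusted p of 0.152. The SEPALLATA pair with measurable levels drew apart. VIT_14s0083g01050 over VIT_01s0010g03900 was 0.0605, 0.0461 and 0.0557 in the 80-day libraries, against 0.141, 0.156 and 0.167 in the 40-day libraries (exact permutation p = 0.000325; adjusted p = 0.00117).

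In all, 5 of the 9 pairs had an adjusted p under 0.05. No share over pairs of other gene models was computed, and 65.4% of all tested gene models passed the adjusted p of limma's F test. The pairs share members, so their calls are not independent of each other or of the limma calls of AGL11 and VIT_14s0083g01050. The calls not yet named were VIT_17s0000g05000 over VIT_14s0083g01050 (exact permutation p = 0.00286, adjusted p = 0.00643) and VIT_17s0000g04990 over VIT_14s0083g01030 (exact permutation p = 0.00922, adjusted p = 0.0166). In both the gene on top was near 0 throughout, and both calls were lost with a pseudocount of 0.1 (adjusted p = 0.31 and 0.144). The near-consecutive FRUITFULL and SEPALLATA genes of the 14s0083 block, which both declined, gave an exact permutation p of 0.152, adjusted 0.152.

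**Figure D4:**
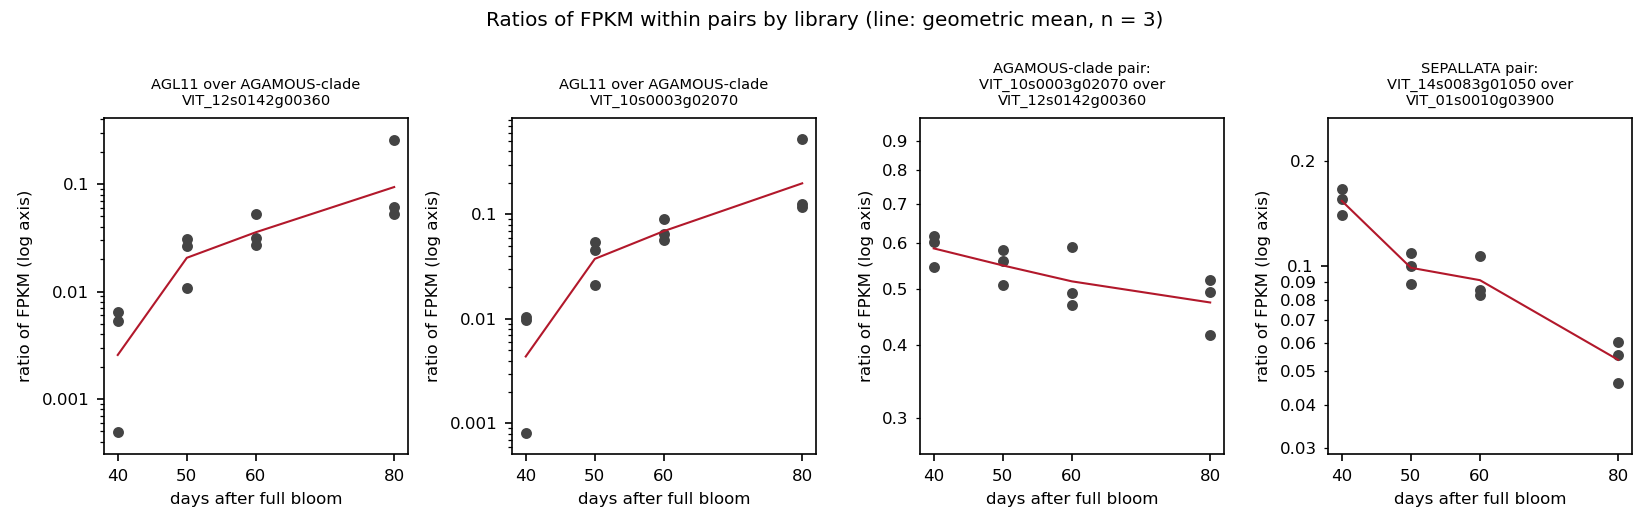
Ratio of FPKM between 2 members of a pair in each library (y axis, log scale, own range per panel) against days after full bloom (x axis), with lines through geometric means (n = 3). Both ratios of AGL11 climb from 40 to 80 days, the AGAMOUS-clade ratio stays between 0.416 and 0.616, and the SEPALLATA ratio is lowest in the 80-day libraries, at 0.0461 to 0.0605.

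At 40, 50, 60 and 80 days the summed level of the 8 genes was 1156 ± 80.9, 1172 ± 111, 958 ± 45.2 and 889 ± 18.96 FPKM in that order (SD, n = 3 each), with no overlap between the 80-day libraries and those of any earlier age. VIT_01s0010g03900 made up 59.0% ± 0.606, 64.3% ± 3.49, 62.3% ± 1.87 and 70.3% ± 0.598 of this sum at the same ages. The share of VIT_14s0083g01050 was 3.802% ± 0.516 at 80 days and 9.11% ± 0.695 at 40 days. The share of AGL11 was 1.95% ± 1.74 at 80 days and 0.0820% ± 0.0633 at 40 days, and leaving out 80-day replicate b lowered its 80-day mean to 0.946%.

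The 80-day replicate b, which had the highest AGL11 level, also had the lowest 80-day level of both AGAMOUS-clade genes, of VIT_14s0083g01050 and of VIT_01s0010g03900, and the highest of VIT_14s0083g01030. For VIT_01s0010g03900 and VIT_10s0003g02070 the next library was less than 1 FPKM above it. Its part in the differences was measured by leaving it out: at 80 against 40 days the same member was higher and the same 4 were lower by adjusted p alone without it.

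Among the tested gene models, those whose course over the 12 libraries was most like a member's were found by Pearson's r of log2(FPKM + 1), given as a description, since all points share the same 12 libraries and most of the spread is between ages. Most like AGL11 were VIT_15s0048g02890 (r = 0.962), VIT_02s0025g03660 (r = 0.949) and VIT_16s0039g01900 (r = 0.945). The last of these averaged 90.6 ± 28.0 FPKM at 80 days and 11.8 ± 2.16 FPKM at 40 days (SD, n = 3 each). Most like VIT_14s0083g01050 was VIT_05s0020g03180 (r = 0.991), which averaged 4.56 ± 1.55 FPKM at 80 days and 220.4 ± 55.2 FPKM at 40 days. VIT_14s0006g00520 (r = 0.989) was most like VIT_12s0142g00360, VIT_00s0179g00110 (r = 0.986) most like VIT_10s0003g02070, VIT_02s0025g02430 (r = 0.958) most like VIT_01s0010g03900, and VIT_14s0108g01300 (r = 0.948) most like VIT_14s0083g01030. Within the set, both AGAMOUS-clade genes and VIT_14s0083g01050 correlated with each other at 0.919 to 0.952, and AGL11 with each of these 3 at -0.915 to -0.805 (n = 12 libraries).

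Identifiers listed next to the members were set beside them. The nearest 2 on each side gave 24 identifiers that are no members, of which 18 were tested. At 80 against 40 days 0 of the 18 were called higher and 2 lower, with a median difference of 0.07. Over all tested gene models 21% were called in either direction. The 4 neighbours of AGL11 had differences from -0.27 to 0.65 and none was called. By adjusted p alone VIT_18s0041g01860 and VIT_18s0041g01890 were higher (limma adjusted p = 0.000785 and 0.00139) and VIT_18s0041g01900 was lower (0.012). Over all tested gene models 30% were higher and 30.7% lower by that rule. The largest change was beside the SEPALLATA gene VIT_01s0010g03900. Its next identifier, VIT_01s0010g03910, averaged 0.948 FPKM at 80 days and 38.6 FPKM at 40 days, a log2 difference of -4.31 (limma adjusted p = 1.98e-06).

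The libraries were similar in overall range, but their summed FPKM differed between ages. The 80-day libraries, from 1126525 up, summed above every 40-day and 60-day library, which reached 1056130 and 1057013. The number of gene models with 1 FPKM or more was 13166 to 14326, the summed FPKM lay between 971004 and 1212608, and libraries of 1 age correlated with each other at 0.977 to 0.984 (Pearson, across tested gene models, which are not replicates). The table gives no counts and low values showed no steps of single reads, so depth is unknown and the counting error of the members near 1 FPKM or below cannot be stated.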

How the data were processed

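The authors deposited one table of FPKM values with 22580 identifiers and 12 libraries, matched to samples through the library codes in the labels, with no column left over. Trimmomatic 0.36, FastQC, TopHat2, Cufflinks and edgeR are listed in the submitters' processing notes, with no roles. The sources used here give neither genome build, annotation nor filters, nor how reads shared by related genes were handled. Per the labels' protocols, polyadenylated RNA was made into strand-specific libraries. From the deposited FPKM values, log2(FPKM + 1) was fitted with limma 3.58.1 (R 4.3.3), one mean per age over all 12 libraries, trended prior variance, no further scaling, and adjustment over all 14579 gene models tested in each comparison. The fit was tested on simulated data. Pair ratios used exact permutation tests in Python 3.11.15. In 66 pairs of libraries, the fullest bin of 0.005 (log2 ratio, values under 0.5 FPKM) held 0.459% to 2.43% of low values, so no reads were recovered. The members, lists and pairs were chosen with earlier results of these data known. All 8 members are named, with the 3 gene models most like AGL11, the 1 most like each other tested member, and 2 listed identifiers on each side. The alternatives tried were the replicate letter as a block, quantile normalization, median-ratio scaling, a pseudocount of 0.1, a minimum mean of 5 FPKM or no filter, dropping the minimum difference or the trend, fitting only the ages compared, and leaving out each library. No sequence was used.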

Additional observations from a re-analysis of the deposited data

How the results depend on the processing

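The rise of AGL11 and the fall of VIT_14s0083g01050 at 80 against 40 days kept their call under all alternatives run, with log2 differences of 2.37 to 4.17 and of -1.71 to -1.50 (limma). With no minimum difference, a looser rule, members changed numbered 5 at 80 against 40 days, 2 at 50 against 40, 1 at 60 against 50, 3 at 80 against 60 and 5 at any age. The count at 80 against 40 days, 2 in the main fit, was 3 with a pseudocount of 0.1 or quantile normalization. It ranged over 2 to 3 with a library left out. At 50 against 40 days the count was 0 with no filter (AGL11 adjusted p = 0.0576), and it ranged over 0 to 1 with a library left out. A pseudocount of 0.1 gave 1 at 80 against 60 days (VIT_14s0083g01030, -1.42), where the cause was not tested. Pairs whose ratio differed numbered 3 with a pseudocount of 0.1 and 3 with none, where pairs with a value at 0 were dropped, and ranged over 4 to 7 with a library left out. With the replicate block the counts of members stayed at 2, 1, 0 and 0, and that of pairs was 6, against 5 without it. Across all tested gene models the letters showed no clear pairing. Deviations of same-letter libraries of different ages correlated at -0.298 to 0.249, over 0.1 in 4 of 18 pairs. Those of different letters correlated at -0.247 to 0.408, over 0.1 in 7 of 36 pairs. AGL11 itself was highest in replicate b at each age, and the block lowered the SE of its differences from 0.51 to 0.33. Its limma adjusted p was then 0.00723 at 50 against 40 days and 0.0951 at 80 against 60 days. Signs that turned belonged to values that were not called: VIT_14s0083g01030 at 50 against 40 days had 0.062 under quantile normalization and -0.26 to 0.15 with a library left out, and VIT_01s0010g03900 at 80 against 60 days had -0.11 under quantile normalization. This setting moved the median of all gene models by 0.11 at 80 against 40 days and by -0.00101 at 80 against 60 days. Of 436 values of uncalled differences and 63 of called ones, 421 and 58 stayed on their side of the threshold. All 5 lost calls were those of AGL11 at 50 against 40 days. These totals include settings that could move little. Leaving out a library of an age not compared left the difference itself unchanged, and dropping the minimum difference can only add calls.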
